A study of Mus musculus with 2 samples.

Results

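In mouse mammary basal cells, 10 genes that drive or mark the entry into mitosis and the exit from it were followed: *Cdk1*, *Ccna2*, *Ccnb1*, *Ccnb2*, *Plk1*, *Aurka*, *Cdc20*, *Cdc25c*, *Mki67* and *Top2a*. They were the rows of the count table that carried these 10 symbols, out of 49492 genes in all. Basal cells form the contractile sheath around the luminal cells of mammary ducts. Per the study's methods they were sorted as lin-CD24+CD29hi cells from adult wild-type female mice, and their RNA was sequenced. There was 1 library per group. The Ctrl basal library came from control mice, whose treatment the sample label gives as none and the design text as saline. The CL basal library came from mice given clodronate liposomes, lipid vesicles that kill the macrophages that take them up. Both samples were labelled day 7, and the number of mice behind each library was not given in the sources used here. With 1 library per group no difference has a replicate check, and no p-value is given. Intervals cover counting error only and compare these 2 libraries, not the treatments.

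Entry into mitosis is driven by CDK1, a protein kinase that is active only when bound to a cyclin. Cyclin A2 serves it in late S phase and G2, and cyclins B1 and B2 carry it into mitosis. The phosphatase CDC25C removes the inhibitory phosphates from CDK1, while the kinases Aurora A and PLK1 help to start this step and build the spindle. Exit begins when CDC20 activates the anaphase-promoting complex (APC/C), a ubiquitin ligase that marks cyclin B for destruction. Topoisomerase II alpha (*Top2a*) untangles chromosomes, and Ki-67 (*Mki67*) coats them in mitosis and is widely used as a marker of dividing cells. Many of these genes are transcribed in G2 and M through a promoter element called the cell cycle genes homology region (CHR), often beside CCAAT boxes bound by NF-Y.

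The promoters are shown first because these elements could be sought in them. RefSeq windows from 250 bases before to 50 bases after the start site (GRCm38.p6) were at hand for 8 of the 10 members, all but *Ccna2* and *Cdc25c*. Those of 7 are printed 5′ to 3′ on the gene's strand, from at most 150 bases before the start site, without bases inside any exon of the GENCODE M21 annotation. Capitals mark the CHR (TTTGAA) and CCAAT, read on either strand. The first 4 belong to the genes with at least 2-fold fewer counts in CL basal, and the last 3 to the genes with a ratio above 0. That of *Ccnb2*, which lay between them, was searched but is not printed.
Cdk1 (chr10:69352939-69353062, minus strand): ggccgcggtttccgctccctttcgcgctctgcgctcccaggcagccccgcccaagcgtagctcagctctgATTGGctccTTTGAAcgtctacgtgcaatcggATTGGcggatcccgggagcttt
Ccnb1 (chr13:100786571-100786636, minus strand): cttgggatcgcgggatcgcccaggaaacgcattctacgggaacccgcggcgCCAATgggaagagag
Mki67 (chr7:135716380-135716529, minus strand): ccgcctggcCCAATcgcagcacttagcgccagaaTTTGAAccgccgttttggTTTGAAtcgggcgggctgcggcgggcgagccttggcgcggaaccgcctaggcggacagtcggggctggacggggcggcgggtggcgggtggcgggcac
Top2a (chr11:99024190-99024339, minus strand): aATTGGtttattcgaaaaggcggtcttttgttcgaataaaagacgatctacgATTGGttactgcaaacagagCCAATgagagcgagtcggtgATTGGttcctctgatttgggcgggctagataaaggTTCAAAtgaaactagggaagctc
Cdc20 (chr4:118437353-118437493, minus strand): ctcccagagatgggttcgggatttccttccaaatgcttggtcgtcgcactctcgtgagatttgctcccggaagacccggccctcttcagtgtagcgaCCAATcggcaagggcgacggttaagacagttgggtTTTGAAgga
Aurka (chr2:172370571-172370680, minus strand): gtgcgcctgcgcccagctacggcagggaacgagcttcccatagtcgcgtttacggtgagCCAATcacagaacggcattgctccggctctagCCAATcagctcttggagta
Plk1 (chr7:122159402-122159434, plus strand): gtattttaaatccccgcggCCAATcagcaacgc

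Of the 8 whole windows, 7 held a CHR, 8 held a CCAAT and 7 held both. Among all 27025 genes with a window, 18.11% held a CHR, 37.92% a CCAAT and 7.12% both. At least 2 CCAAT matches were found in 7 of the 8, against 12.16% of all genes. *Ccnb1* was the member without a TTTGAA match, and its CCAAT matches began at positions -99 and -67 from the RefSeq start site. Only exact TTTGAA was searched for the CHR, so other forms of it were not counted. *Cdk1* had a CHR at -71 and another at -15, *Mki67* at -116 and -98, *Top2a* at -179 and -23, and *Cdc20* at -18. *Ccnb2* had a CHR at -167 and another after the start site at 5. In *Aurka* and *Plk1* the CHR lay after the RefSeq start site, at 33 and 31. The gene spans used for counting can begin elsewhere. Those of *Aurka* (172370535) and *Ccnb2* (70421547) begin further downstream, within the CHR at 33 and the CHR at 5. That of *Ccnb1* (100786570) begins further upstream, so its CCAAT at -67 lies inside it. No CHR overlapped a CCAAT. *Top2a* had the most CCAAT matches, 6, and *Plk1* had 1. The mitotic kinesins had a CHR in 90.91% and both elements in 63.64% of 11 windows. The kinetochore and checkpoint genes had a CHR in 8 of 16 windows and both in 31.25%. Of 24 windows of replication genes 12.5% held both, and of 13 windows of APC/C subunit genes 0 did. Such matches describe letters in a window, and binding was not measured. Genes on both sides of the comparison below carried them.

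**Figure D1:**
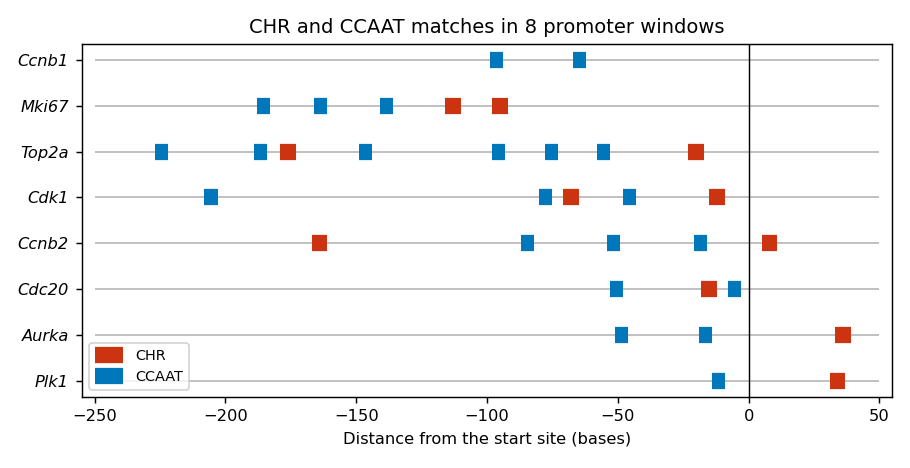
Positions of CHR (red) and CCAAT (blue) matches in the promoter windows of 8 members, in bases from the RefSeq start site (vertical line). Genes are ordered from the lowest log2 ratio of CL basal over Ctrl basal at the top. *Ccnb1* has no TTTGAA match, and those of *Aurka* and of *Plk1* lie after the RefSeq start site, at 33 and 31.

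The Ctrl basal library held 37846008 counts and the CL basal library 38962512, a depth ratio of 1.03. A count of 0 allows up to 3 counts, or 0.0782 and 0.078 CPM (counts scaled to library size). Genes of the basal layer were abundant in both libraries, with *Krt14* at 210758 counts in Ctrl basal and 232845 in CL basal, and the 12 basal markers had a median log2 ratio of 0.07. Low counts were mostly even (67.9% and 68.7% of values from 1 to 20) and large ones were not, so that the mates of a read pair may each have been counted. This was not tested. Each interval is therefore given for the counts as deposited and, where it matters, for counts divided by 2. The log2 ratio is CL basal over Ctrl basal after scaling by the trimmed mean of M-values (TMM), with a prior count of 2. A threshold of 2-fold was applied to genes whose counts in both libraries summed to 20 or more. These were 17356 genes, with a median log2 ratio of -0.01.

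In CL basal, 4 of the 9 members with enough counts were lower by at least 2-fold, namely *Ccnb1*, *Mki67*, *Top2a* and *Cdk1*. None was higher by that much. Over all tested genes, 4.79% were lower and 2.07% higher by at least 2-fold. The intervals of all 4 lay below 0. Of all tested genes, 4.44% were lower by at least 2-fold with an interval below 0. The median over the 9 was -0.82, against -0.01 over all tested genes. The other 2 members below 0 were *Ccnb2* and *Ccna2*, and 3 were above 0, *Cdc20*, *Aurka* and *Plk1*. The tenth gene, *Cdc25c*, had too few counts to be tested, and with it the median was -0.98. Whether these 4 would pass a test depends on the spread between animals, which 1 library per group cannot give. With it assumed at a coefficient of variation of 0.1, edgeR's exact test (Benjamini-Hochberg adjusted p under 0.05) called all 4 and 2.85% of tested genes as lower, and at 0.2 it called 0 of the 4 and 0.622%. The share of 2-fold lower genes depended on abundance. It was 15.2% among the 3849 genes with 20 to 99 counts, where 2 of 3 members were lower, and 3.26% among the 6410 genes with 100 to under 1000 counts, where 0 of 3 were. Among the 5592 genes with 1000 to under 10000 counts it was 0.519%, and 2 of 3 members were lower there, *Mki67* and *Top2a*.

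**Figure D2:**
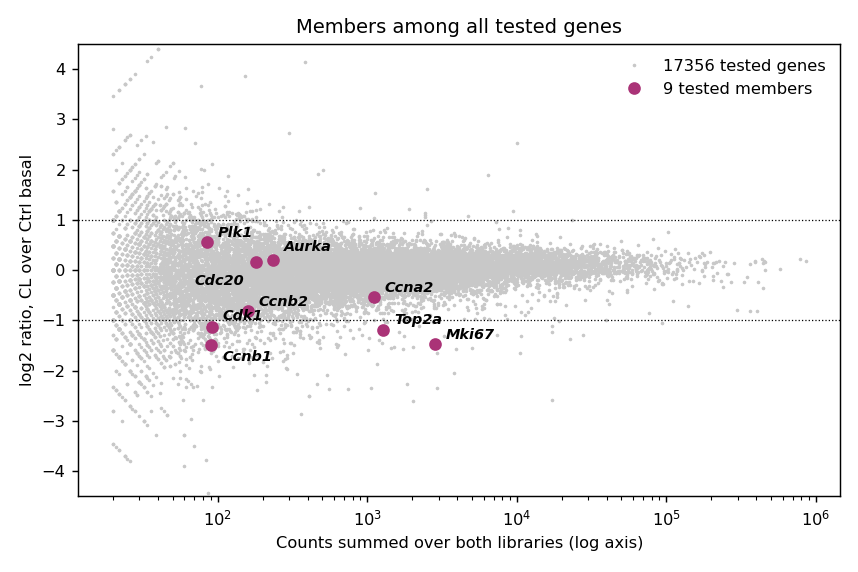
Log2 ratio of CL basal over Ctrl basal (vertical axis) against counts summed over both libraries (log axis) for 17356 tested genes (grey) and 9 tested members (purple), with dotted lines at 2-fold; 2 genes lie beyond the axis. *Mki67* and *Top2a* stand below most genes of their abundance, and *Cdk1* and *Ccnb1* lie where genes scatter more widely.

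*Cdk1* (chromosome 10, 69336635 to 69352938, GRCm38, 10 exon blocks), the kinase itself, had 64 counts in Ctrl basal and 28 in CL basal. Per kilobase of exon this was a level of 0.484 CPM in Ctrl basal and 0.211 in CL basal. The log2 ratio was -1.14 (95% interval -1.89 to -0.53), and with counts divided by 2 the interval ran from -2.22 to -0.25. It was thus lower in CL basal beyond counting error, but among tested genes of 20 to 99 counts 11.3% had a lower ratio still.

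*Ccnb1* (chromosome 13, 100778650 to 100786570), the B-type cyclin that brings CDK1 into the nucleus at mitotic onset, had 68 counts in Ctrl basal and 23 in CL basal. Its log2 ratio was -1.49 (-2.32 to -0.87, or -2.76 to -0.62 with counts divided by 2), and 6.08% of genes of like abundance were lower. The level per kilobase was 0.420 CPM in Ctrl basal and 0.142 in CL basal. Relative to *Cdk1* per kilobase, *Ccnb1* stood at 0.868 in Ctrl basal and 0.671 in CL basal. The study singled out *Cdk1* and *Ccnb1* partly on these libraries, so that their lower counts here are not independent evidence. Several processed copies of *Ccnb1* exist. The transcript of *Gm12856* matched it at 98.1% identity over 1294 bases and had 0 counts in both libraries, and *Gm4870* (94.4% over 1272 bases) had 0 and 2. *Ccnb1-ps* (99.2% over 1287 bases), *Gm8416* (97.3% over 1290) and *Gm7483* (96.6% over 383) were not among the genes counted. How reads shared between such copies were assigned is not given in the sources used here.

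*Ccnb2* (chromosome 9, 70407692 to 70421547), the other B-type cyclin, which resides largely at the Golgi, had 102 counts in Ctrl basal and 57 in CL basal. Its log2 ratio of -0.82 (-1.34 to -0.36) lay below 0 but short of 2-fold. By these counts it was the more abundant B cyclin in both libraries, with 1.74 CPM per kilobase in Ctrl basal and 0.968 in CL basal. Near-identical copies were found for *Ccnb1* but not for *Ccnb2*, and whether *Ccnb1* lost reads to them was not tested. The ratio of *Ccnb1* to *Ccnb2* per kilobase was 0.242 in Ctrl basal and 0.146 in CL basal. *Ccna2* (chromosome 3, 36564865 to 36572150), which acts earlier, from S phase to prophase, had 656 and 450 counts. Its log2 ratio was -0.55 (-0.72 to -0.37), the smallest reduction among the members below 0, although 2.74% of genes of like abundance were lower. Of its 4083 exonic bases, 510 are shared with *Exosc9* on the other strand (1470 counts in Ctrl basal and 1333 in CL basal), and the use of strand in counting is not given in the sources used here. *Ccna2* was 8.65 times as abundant as *Cdk1* per kilobase in Ctrl basal and 13.6 times in CL basal, but the interval of *Cdk1* minus *Ccna2* in log2 ratio took in 0 (-0.65, -1.37 to 0.04).

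*Plk1* (chromosome 7, 122159439 to 122169873), the polo-like kinase of mitotic entry and spindle assembly, had 34 counts in Ctrl basal and 51 in CL basal, a log2 ratio of 0.55 (-0.07 to 1.25). Its interval took in 0, so at these counts a difference could not be told from counting error. The pseudogene *Plk-ps1*, which matched *Plk1* at 93.5% identity over 1813 bases, had 23 and 21 counts, and the sum of both gave 0.32 (-0.19 to 0.86), a sum formed after the values had been seen. *Plk1* also shares 156 of its 2199 exonic bases with *Gm44985* on the other strand, with 0 and 6 counts. *Aurka* (chromosome 2, 172356190 to 172370535), the centrosomal kinase that activates PLK1, had 109 and 126 counts, a log2 ratio of 0.20 (-0.18 to 0.59). *Cdc25c* (chromosome 18, 34732997 to 34751533) had 10 counts in Ctrl basal and 2 in CL basal. Its log2 ratio of -1.59 had an interval from -5.56 to -0.10, which took in 0 once counts were divided by 2 (-7.89 to 0.83). The transcript of *Gm3550*, which lies on the other strand within the span of *Cdc25c*, matched it at 100% identity over 623 bases and had 0 and 3 counts. The sum of both, formed after the values had been seen, was 10 and 5 counts, a log2 ratio of -0.78 (-2.90 to 0.68).

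*Cdc20* (chromosome 4, 118432901 to 118437352), which switches on the APC/C at the exit from metaphase, had 85 counts in Ctrl basal and 96 in CL basal. Its log2 ratio was 0.17 (-0.26 to 0.61), and 53 of its 1868 exonic bases are shared with *Elovl1* on the other strand, with 611 and 562 counts.

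*Mki67* (chromosome 7, 135689784 to 135716361) was the member with the most counts, 2103 in Ctrl basal and 754 in CL basal. The log2 ratio was -1.48 (-1.61 to -1.36, or -1.66 to -1.31 with counts divided by 2), and 0.250% of the genes with 1000 to under 10000 counts had a lower one. *Top2a* (chromosome 11, 98992943 to 99024189) had 891 and 390 counts, a log2 ratio of -1.19 (-1.37 to -1.02), with 0.411% of genes of like abundance lower. With counts divided by 2 its interval, -1.44 to -0.95, reached just short of 2-fold. These were the members measured most precisely. *Mki67*, *Top2a* and *Ccna2* held 88.5% of the members' counts in Ctrl basal and 80.6% in CL basal. The summed counts of all 10 members, 4122 and 1977, are therefore largely theirs, and without *Mki67* they were 2019 and 1223.

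**Figure D3:**
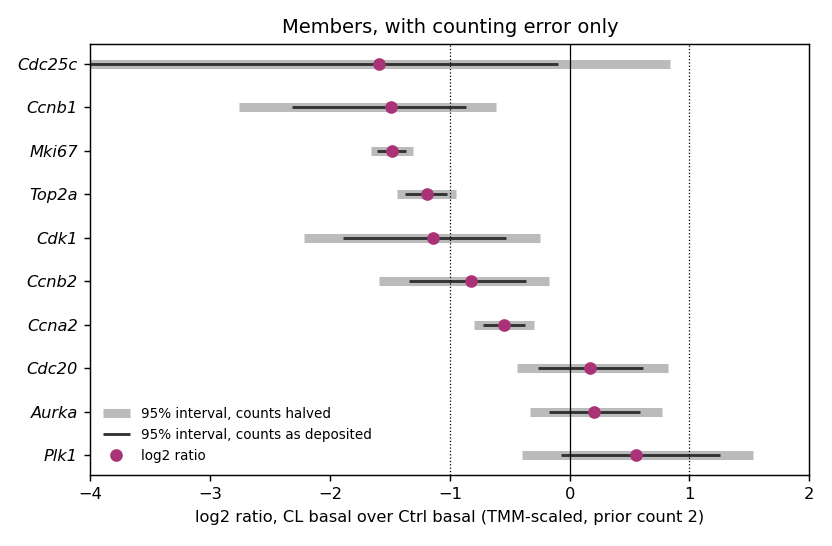
Log2 ratio of CL basal over Ctrl basal for each member, with 95% intervals of counting error for the counts as deposited (thin lines) and for counts divided by 2 (thick lines); dotted lines mark 2-fold, and the lower ends for *Cdc25c* run past the left edge at -4. The intervals of *Ccnb1*, *Mki67*, *Top2a*, *Cdk1*, *Ccnb2* and *Ccna2* lie below 0 with either, and those of *Cdc20*, *Aurka* and *Plk1* take in 0.

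The order of the members by level per kilobase differed between the libraries. The exonic length used may differ from that of the transcripts present, an error that the counting intervals do not cover. In Ctrl basal it ran from *Mki67* (5.45 CPM per kilobase) through *Ccna2* (4.19), *Top2a* (2.58), *Ccnb2* (1.74), *Cdc20* (1.19), *Aurka* (1.12), *Cdk1* (0.484), *Ccnb1* (0.420) and *Plk1* (0.403) to *Cdc25c* (0.134). The counting intervals of *Cdc20* and *Aurka* overlapped, that of *Cdc20* also reached into that of *Ccnb2*, and those of *Cdk1*, *Ccnb1* and *Plk1* overlapped, so that their order is not resolved. In CL basal *Ccna2* came first (2.87), before *Mki67* (1.95), *Cdc20* (1.34), *Aurka* (1.29), *Top2a* (1.13), *Ccnb2* (0.968), *Plk1* (0.603), *Cdk1* (0.211), *Ccnb1* (0.142) and *Cdc25c* (0.0268). There the intervals of *Cdc20*, *Aurka*, *Top2a* and *Ccnb2* overlapped, and so did those of *Ccnb2* and *Plk1*, of *Cdk1* and *Ccnb1*, and of *Ccnb1* and *Cdc25c*. *Plk1* ranked below *Cdk1* and *Ccnb1* in Ctrl basal and above both in CL basal, where its interval (0.449 to 0.793) was clear of that of *Cdk1* (0.140 to 0.306).

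**Figure D4:**
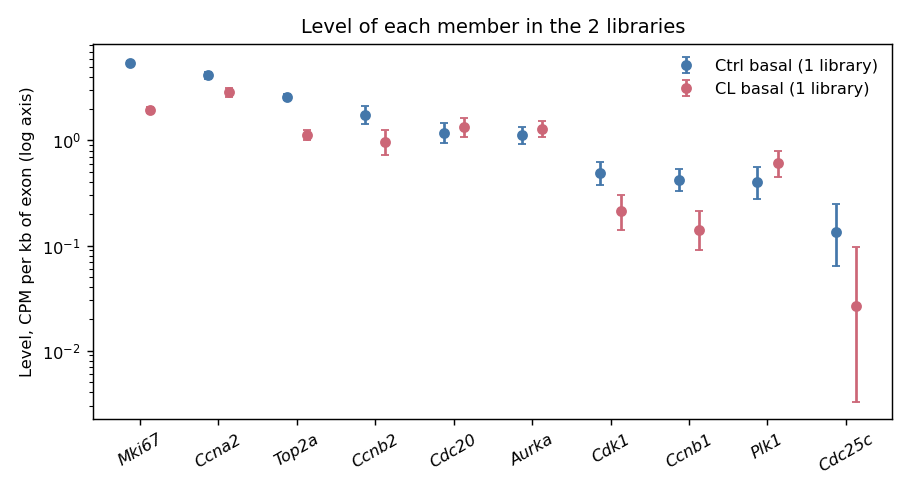
Level of each member in CPM per kilobase of exon (log axis) in the Ctrl basal (blue) and CL basal (red) libraries, with 95% Poisson intervals of counting error. *Mki67* stands highest in Ctrl basal at 5.45 and *Ccna2* in CL basal at 2.87, while *Cdc20*, *Aurka* and *Plk1* are the 3 members whose red point lies above the blue one.

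Differences between members do not depend on how the libraries were scaled, and all 36 pairs of the 9 tested members were compared by the interval of the ratio of their ratios. This comparison was added after the values had been seen, and it describes reads of these 2 libraries. Of the 36 pairs, 23 differed at the 95% level and 18 once the intervals were adjusted over 36 pairs. With counts divided by 2 these numbers were 21 and 9. Pairs of other genes were not compared, so whether the members differ more than such pairs was not tested. *Cdk1* and its partner *Ccnb1* were not told apart, with a difference in log2 ratio of 0.37 (-0.64 to 1.39), nor were *Plk1* and *Aurka* (0.37, -0.39 to 1.15). The B cyclins differed by -0.72 (*Ccnb1* minus *Ccnb2*, -1.62 to 0.15), again with 0 inside the interval. *Ccnb1* minus *Plk1* came to -2.14 (-3.15 to -1.16), or -3.77 to -0.60 when adjusted over 36 pairs, and with counts divided by 2 the adjusted interval took in 0 (-4.59 to 0.04). *Cdk1* minus *Aurka* was -1.40 (-2.20 to -0.62), and its adjusted interval likewise took in 0 with counts divided by 2 (-3.31 to 0.33). Among the S phase and chromosome genes, *Ccna2* was less reduced than *Mki67* by 0.94 (0.72 to 1.15) and than *Top2a* by 0.65 (0.40 to 0.90). *Mki67* minus *Top2a* was -0.29 (-0.50 to -0.07), which took in 0 when adjusted over 36 pairs (-0.63 to 0.06) or with counts divided by 2 (-0.59 to 0.02).

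Genes that work with the members were then set beside them by role. Of all tested genes, 4.79% were lower by at least 2-fold, and their median was -0.01. The share was 15.2% of genes with 20 to 99 counts and 1.83% of genes with at least 100. Of 12 tested regulators of CDK1, 0 were lower and 0 higher by at least 2-fold, with a median of -0.14. *Wee1*, the kinase that holds CDK1 inactive, had 485 counts in Ctrl basal and 439 in CL basal (log2 ratio -0.15, -0.34 to 0.04), and *Pkmyt1*, the other inhibitory kinase, had 106 and 84 (-0.33, -0.77 to 0.09). *Cdc25b*, the phosphatase that starts CDK1 activation, had 46 and 26 counts (-0.78, -1.58 to -0.10, or -1.93 to 0.21 with counts divided by 2). *Cdc25a*, the phosphatase of the same family that also acts at the start of S phase, had 311 and 403 (0.37, 0.15 to 0.59, or 0.06 to 0.68 with counts divided by 2), and was named after its value had been seen. *Cks2*, a small subunit of the CDK complex, had 165 and 223 (0.43, 0.13 to 0.73), and *Ccnf*, cyclin F, had 60 and 40 (-0.57, -1.20 to 0.01). *Ccnb3* had 0 counts in both libraries.

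Of 10 tested partners of the Aurora and polo-like kinases, 8 lay below 0 (median -0.69). By at least 2-fold 4 (40%) were lower, against 4.79% of all tested genes. Of these 4, 2 had at least 100 counts, as had 8 of the 10 partners. *Tpx2*, which activates Aurora A on spindle microtubules, had 473 counts in Ctrl basal and 168 in CL basal (-1.49, -1.76 to -1.24), against the ratio of 0.20 for *Aurka* itself. The chromosomal passenger genes *Cdca8* (198 and 75 counts, -1.38), *Aurkb* (28 and 5, -2.10, interval -4.22 to -1.10) and *Birc5* (56 and 27 counts, just past 2-fold) were the other 3. *Birc5* was named after its value had been seen. *Plk3*, a stress-responsive relative of PLK1, had 3152 and 3933 counts (0.32).

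On the side of mitotic exit, 7 of 11 activators, inhibitors and substrates of the APC/C lay below 0 and 4 above (median -0.30). By at least 2-fold 2 (18.2%) were lower, against 4.79% of all tested genes. Of the 9 with at least 100 counts 1 was lower, against 1.83% of all genes with that many. *Ube2c*, the ubiquitin-conjugating enzyme of the APC/C, had 230 counts in Ctrl basal and 58 in CL basal (-1.95, -2.43 to -1.57), and *Espl1* (separase), named after its value had been seen, had 25 and 10 (-1.17, -2.55 to -0.22, or -3.12 to 0.34 with counts divided by 2). *Ube2s*, which extends the ubiquitin chains, went the other way with 5247 and 6523 (0.31). *Fbxo5*, an inhibitor of the APC/C, had the highest ratio, with 31 and 50 counts (0.65, 0.01 to 1.38, or -0.25 to 1.76 with counts divided by 2), and was also named after its value had been seen. *Mad2l1*, the checkpoint protein that restrains CDC20, had 236 and 118 (-0.99), just short of 2-fold. *Fzr1*, the second activator of the APC/C, had 620 and 504 (-0.30, -0.48 to -0.13). The 14 subunits of the APC/C held a narrow range, from -0.35 (*Anapc2*, 2567 and 2014 counts) and -0.28 (*Anapc4*) to 0.11 (*Anapc13*), and 0 of them passed 2-fold. Neither did any of the 8 phosphatase genes of mitotic exit, whose named members were *Ppp2r1a* (-0.18), *Ppp1ca* (-0.17) and *Ppp2r2a* (0.27).

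The lists with the lowest medians were those of the kinetochore and of the mitotic kinesins. Of 18 tested kinetochore and checkpoint genes, 12 were lower by at least 2-fold, against 4.79% of all tested genes, and 16 lay below 0 (median -1.57). Among the 13 with at least 100 counts 8 were lower, against 1.83% of all genes with that many. *Cenpe*, a kinetochore motor, had 437 counts in Ctrl basal and 101 in CL basal (-2.10), and *Cenpf* had 275 and 64 (-2.07). *Ska3*, of the complex that holds microtubules, had 83 and 110 (0.39, -0.02 to 0.83). The study chose *Cenpe* and some other genes of this list partly on these libraries, so its count is not independent evidence of direction. All 12 kinesins lay below 0 and 7 were lower by at least 2-fold, with a median of -1.17. Among the 8 kinesins with at least 100 counts 5 were lower. *Kif22* had 128 and 35 counts (-1.82), *Kifc1* had 112 and 32 (-1.75), and *Kif23*, the motor of the central spindle, had 296 and 274 (-0.11, -0.36 to 0.13).

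The lists of chromosome structure and of DNA replication had medians near that of all tested genes, though single genes lay far from it. Of 14 genes of condensin and other chromosome structure proteins (median -0.11), 1 was lower by at least 2-fold, against 4.79% of all tested genes. It was *Ncapg*, a condensin subunit named after its value had been seen, with 53 and 18 counts (-1.46). *Smc2* (582 and 380 counts, -0.62) and *Ncaph* (129 and 88, -0.55, or -1.13 to 0.03 with counts divided by 2) were the lowest with at least 100 counts, and *Anp32e* was highest (0.28). Of 31 replication genes, 19 lay below 0 and 12 above (median -0.09). By at least 2-fold 3 (9.68%) were lower, against 4.79% of all tested genes. Of the 29 with at least 100 counts 1 was lower, against 1.83% of all genes with that many. *Rfc4*, a clamp loader subunit, had 100 counts in Ctrl basal and 32 in CL basal (-1.59), *Lig1* had 659 and 406 (-0.70), and *Cdc45* had 85 and 118 (0.46, or -0.11 to 1.09 with counts divided by 2). The other 2 lower genes, named after their values had been seen, were *Pole* (-1.25) and *Orc1* (-1.05).

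Of 20 transcription factors and repressors of the G2/M programme, 1 (5%) was lower by at least 2-fold, against 4.79% of all tested genes, and the list's median was 0.07. *Foxm1*, which activates many of the members in G2, had 140 counts in Ctrl basal and 146 in CL basal, a log2 ratio of 0.06 (-0.29 to 0.40). *Mybl2*, its partner at the CHR, had 129 and 86 (-0.58), and its interval took in 0 with counts divided by 2 (-1.17 to 0.0024). *E2f8*, a repressor of the E2F family, was the lower one with 317 and 144 (-1.13), *Rbl1* had 85 and 52 (-0.69, or -1.46 to 0.04 with counts divided by 2), and *E2f1* had 51 and 78 (0.59, 0.08 to 1.15, or -0.12 to 1.42 with counts divided by 2).

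**Figure D5:**
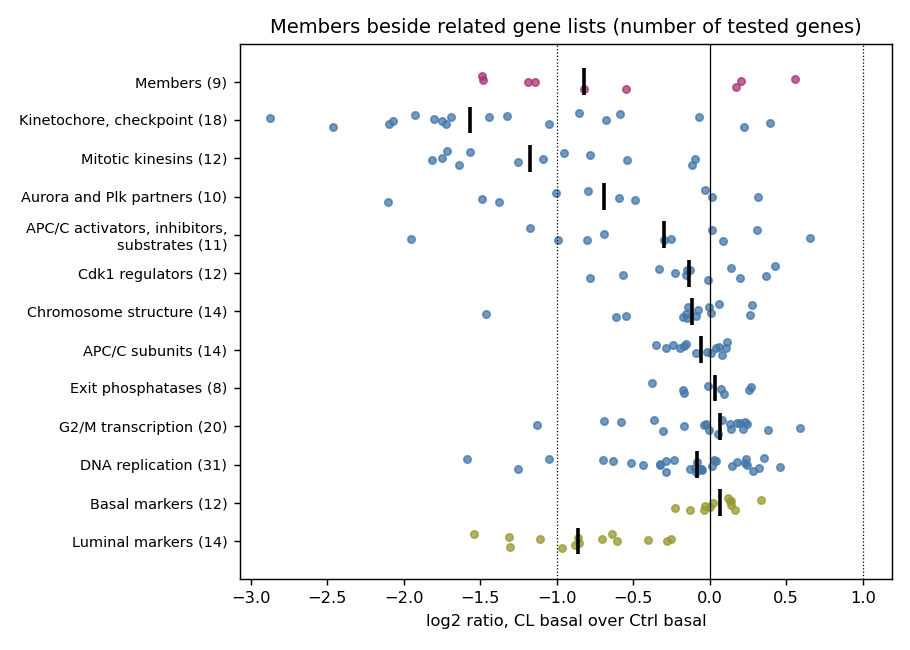
Log2 ratio of CL basal over Ctrl basal for each tested gene (points) of the members, of 10 related lists and of the basal and luminal marker lists, with the median of each list as a black bar, dotted lines at 2-fold and the number of tested genes in brackets. Medians are lowest for kinetochore genes (-1.57) and kinesins (-1.17), and those of the G2/M transcription and basal marker lists are both 0.07.

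Of the markers of other cell types, the luminal ones were lower together. All 14 luminal markers had a log2 ratio below 0, from -1.54 to -0.26 with a median of -0.86. Of them 4 (28.6%) were lower by at least 2-fold, against 4.79% of all tested genes. The intervals of *Elf5* (84 and 69 counts, -0.28, -0.77 to 0.19) and *Cited1* (35 and 26, -0.41, -1.22 to 0.34) took in 0. The summed level of the 14 luminal markers was 5240 CPM in Ctrl basal and 3260 in CL basal. The lowest was *Wfdc18*, with 1500 and 516 counts, and *Krt8* had 86539 and 53150. Of 8 fibroblast and 8 endothelial markers, 7 of each lay below 0 (medians -0.42 and -0.28), with summed levels of 261 and 212 CPM for the former and 532 and 426 CPM for the latter. By at least 2-fold 1 fibroblast marker was lower, *Lum* (128 and 34 counts, -1.86, -2.51 to -1.36), and 0 endothelial markers were. The 12 macrophage markers summed to 28.3 CPM in Ctrl basal and 26.3 in CL basal, and 7 of the 9 tested lay below 0 (median -0.23). The 1 lower by at least 2-fold was *C1qc*, with 16 and 6 counts (-1.17), and its interval took in 0 (-3.06 to 0.009). *Mrc1* had 168 counts in Ctrl basal and 86 in CL basal (-0.95, -1.36 to -0.59) and *Cd68* had 233 and 185 (-0.33, -0.62 to -0.05, or -0.75 to 0.07 with counts divided by 2), while *Csf1r* had 64 and 89 (0.46, -0.0077 to 0.96) and *Mertk* had 353 and 421 (0.25, 0.04 to 0.46, or -0.04 to 0.55 with counts divided by 2). Too low to test were *Adgre1*, with 7 and 10 counts, *C1qb*, with 12 and 6, and *Fcgr1*, with 0 and 4. The 12 lymphoid markers summed to 20.5 and 19.8 CPM, with a median of -0.02 over the 10 tested. By the study's methods the sort left out cells positive for CD45, CD31 (vascular endothelium) or TER119, and CD29 set basal (high) apart from luminal (low) cells. The part of luminal, fibroblast and endothelial RNA in the members' values was not tested. In these bulk libraries fewer dividing cells and less RNA of these genes per cell cannot be told apart.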

How the data were processed

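The raw counts per gene were deposited by the authors, unnormalized, in the layout of featureCounts, with 1 column per library. The submitters' processing notes name GRCm38 and mm10. The alignment program, the gene annotation, strand handling and any removal of PCR copies are not given in the sources used here. The deposited table also holds a ratio and a log2 ratio of the authors' own comparison, which were not used.

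Counts were scaled with TMM factors of edgeR 4.0.16 (R 4.3.3), 1.01 for Ctrl basal and 0.987 for CL basal, from genes whose summed counts were 20 or more. Intervals of 95% were exact (Clopper-Pearson) intervals of the CL basal share of the reads of each gene, and for levels exact Poisson intervals (scipy 1.17.1). Pairs of members were compared by the conditional interval of the odds ratio. No model with a spread between replicates can be fitted to 1 library per group. Near-identical copies were sought in GENCODE M21 transcripts with BLAST 2.17.0 (at least 90% identity over 100 bases), and overlaps from the table's own exons. Scripts were tested on simulated data.

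The members, the related lists and the tests were chosen with earlier results of these data known. Named genes were the 10 members, the 2 lowest and 1 highest genes of each related list with at least 100 counts, and 7 regulators named whatever their values (*Foxm1*, *Mybl2*, *Fzr1*, *Wee1*, *Aurkb*, *Ccnb3* and *Cdc25b*). The marker genes named with values were chosen after these had been seen.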

Additional observations from a re-analysis of the deposited data

How the results depend on the processing

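The members' log2 ratios were recomputed under 11 alternatives: upper-quartile, DESeq2 (1.42.0) or total-count scaling, prior counts of 0.5 and 5, either no filter or a minimum of 100 counts, counts divided by 2, the deeper library thinned, protein-coding genes alone, and the trend on mean expression removed. The filters and the restriction to protein-coding genes leave a ratio as it is and bear only on which members count. The 79 values under the other 8 stayed within the counting interval of the reported value, with 0 reversed. *Mki67* ran from -1.52 to -1.47, *Cdk1* from -1.18 to -1.03, *Ccnb1* from -1.55 to -1.38, *Cdc25c* from -2.07 to -1.10 (prior counts of 0.5 and 5) and *Plk1* from 0.50 to 0.67. The count of 4 lower members fell to 2 of 6 tested (*Mki67* and *Top2a*) with at least 100 counts (1.83% of all genes tested there), also for those whose interval lay below 0, because *Cdk1* and *Ccnb1* no longer entered. It was 5 without a filter (with *Cdc25c*) or at 1.5-fold (with *Ccnb2*), where 12.9% and 11.7% of all genes were lower. With edgeR's exact test at an assumed coefficient of variation between animals of 0.1 it was 4, at 0.2 it was 0 and at 0.4 it was 0, with 2.85%, 0.622% and 0% of all tested genes called lower. Since no gene was called lower at 0.4, that 0 says nothing about the members. These spreads are assumed, not measured. Summing *Cdc25c* with *Gm3550*, added after the values had been seen, gave -0.78. The members' median ran from -0.98 without a filter to -0.68 with at least 100 counts. No paired analysis was possible because only 1 library existed per group. Depth limits *Cdc25c*, *Plk1*, *Ccnb1* and *Cdk1* most, each under 100 counts.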
